A study of Mus musculus with 14 samples.

Results

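The genes of protein folding and secretion in the endoplasmic reticulum (ER) are described here in sorted mouse peritoneal macrophages. The 42 members were named by function and found through the RefSeq accession of their array probes, a rule that uses no measured value. They were, however, chosen with earlier results of these data known, so their shares against all genes are descriptions. All 42 were among the 20343 genes tested, and each was well above background on all 14 arrays. By role they were 9 lumenal chaperones and cofactors, 4 disulfide isomerases, calnexin and calreticulin, 3 sensors and 3 transcription factors of the unfolded protein response, 7 genes of ER-associated degradation, 3 Sec61 translocon subunits, 4 subunits of the translocon-associated protein (TRAP) complex, 3 signal peptidase subunits and 4 targets of the integrated stress response.

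Every mouse was C57BL/6, and cells were sorted for 2 surface proteins of macrophages, CD11b (encoded by Itgam) and the antigen encoded by Adgre1. PBS (3 arrays, titled untreated but with a treatment label of PBS) stands for mice injected into the peritoneum with vehicle, and IL-4c (4 arrays) for mice given 5 µg of IL-4 complexed with 25 µg of the antibody 11B11, which prolongs the cytokine's action. Thio (3 arrays) stands for mice given 2 ml of 4% thioglycollate medium, an irritant that draws monocytes into the cavity, and Thio+IL-4c (4 arrays) for mice given both. The series asked how IL-4 acts on resident macrophages (without thioglycollate) and on elicited ones (with it). The labels give no age or time after injection. They are also silent on whether the arrays of a group stem from different animals, and a p-value here covers the spread among these samples alone, part of which may be technical.

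Proteins bound for the cell surface, the lysosome or secretion enter the ER through the Sec61 channel, lose their signal peptide to signal peptidase, and are folded there by chaperones, lectins and disulfide isomerases, while misfolded chains are returned to the cytosol for degradation. The unfolded protein response adjusts this machinery through 3 membrane sensors encoded by Ern1 (IRE1), Eif2ak3 (PERK) and Atf6. IRE1 splices the Xbp1 messenger, ATF6 is cleaved into a transcription factor, and PERK favours translation of ATF4, which kinases sensing amino acid shortage also do. IL-4 drives macrophages into alternative activation, with abundant secreted products such as chitinase-like proteins.

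The promoters of these genes carry known stress elements, which were searched in RefSeq promoter windows (GRCm38.p6, from 250 bases before to 50 bases after the start site), on both strands. Windows were found for 35 of the 42 members. The ER stress response element (ERSE), bound at its first part by NF-Y and at its second by ATF6, was searched as CCAAT, 9 bases of any kind, and CCACG. It was present in 9 of 35 members (25.7%), against 37 of 27025 genes (0.137%). The variant ERSE-II, ATTGG, 1 base and CCACG, was found in Dnajb11 and Herpud1, 5.71% of members against 0.0444% of genes. The C/EBP-ATF response element (CARE), TGATGNAAN, to which ATF4 binds with a partner, was in Asns, Chac1, Herpud1 and Trib3, 11.4% of members against 4.5% of genes. The core of the unfolded protein response element, TGACGTGG, was in 0 of 35 members and in 0.714% of genes. These matches describe the letters in each window and are not measured sites.

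The elements upstream of the start are shown with 15 bases on either side (14 after that of Asns), because they are the sequence feature that sets several members apart from other genes. Capitals mark the fixed letters of the element, and each stretch is written 5′ to 3′ on the strand that reads the element as given above.
Hspa5, ERSE, chr2:34772010-34772058, plus strand: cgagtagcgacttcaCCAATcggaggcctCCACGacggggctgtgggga
Hsp90b1, distal ERSE, chr10:86705623-86705671, minus strand: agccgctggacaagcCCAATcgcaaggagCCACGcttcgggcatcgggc
Hsp90b1, proximal ERSE, chr10:86705518-86705566, plus strand: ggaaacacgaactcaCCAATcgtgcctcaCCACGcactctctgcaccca
Dnajc3, ERSE, chr14:118937812-118937860, plus strand: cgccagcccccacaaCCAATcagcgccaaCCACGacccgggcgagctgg
Creld2, ERSE, chr15:88819505-88819553, minus strand: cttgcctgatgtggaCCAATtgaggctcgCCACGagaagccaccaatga
Pdia6, ERSE, chr12:17266476-17266524, plus strand: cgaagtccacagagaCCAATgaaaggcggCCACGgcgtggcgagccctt
Calr, ERSE, chr8:84847060-84847108, plus strand: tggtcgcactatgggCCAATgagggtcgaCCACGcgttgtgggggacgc
Canx, ERSE, chr11:50325785-50325833, minus strand: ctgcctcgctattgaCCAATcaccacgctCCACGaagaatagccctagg
Syvn1, ERSE, chr19:6046517-6046565, plus strand: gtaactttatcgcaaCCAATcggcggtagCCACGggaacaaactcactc
Derl3, ERSE, chr10:75893227-75893275, minus strand: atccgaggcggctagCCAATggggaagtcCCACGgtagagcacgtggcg
Herpud1, ERSE-II, chr8:94386362-94386402, plus strand: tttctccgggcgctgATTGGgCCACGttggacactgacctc
Herpud1, CARE, chr8:94386301-94386339, minus strand: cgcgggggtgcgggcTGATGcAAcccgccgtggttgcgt
Chac1, CARE, chr2:119351033-119351071, minus strand: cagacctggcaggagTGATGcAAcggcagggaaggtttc
Asns, CARE, chr6:7693210-7693247, minus strand: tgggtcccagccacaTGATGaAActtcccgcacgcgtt
Herpud1 was the member whose window held elements of both kinds, and the elements of Dnajb11 and Trib3, which lie after the start, are not printed. Of the 9 members with an ERSE, 5 were called higher with IL-4c on resident cells and 7 with IL-4c on elicited cells by the limma test described next, and 0 were called lower in either. Among the 26 members with a window and no ERSE these counts were 16 and 18 higher and 3 and 2 lower. Of all genes, 16.9% and 16.2% were called higher and 15.3% and 23.1% lower. Median log2 differences were 0.53 and 0.88 with an ERSE and 0.69 and 0.58 without. A link between the element and the response was not tested.

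**Figure D1:**
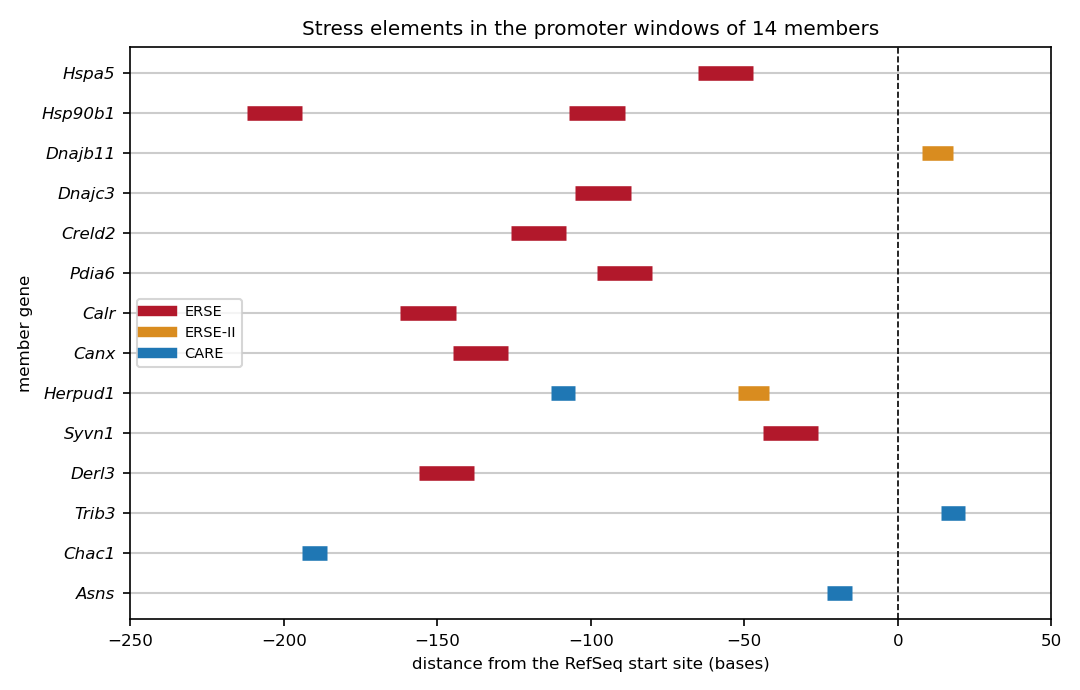
Position of the stress elements in the promoter windows of the 14 members that held any. The horizontal axis is the distance in bases from the RefSeq start site (dashed line), grey lines are the searched windows and blocks are the elements. The 10 ERSE elements all lie before the start site, and the element of Dnajb11 and that of Trib3 lie after it.

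Levels are log2 processed signals from which the array's own 75th percentile was subtracted, so that a level of 0 equals that percentile, and probes of different genes cannot be ranked against each other. The PBS arrays were dimmer (75th percentile of signal 1275.4 to 1818.5) than those of IL-4c (3058.7 to 3883.4) and of Thio (2294.4 to 3578.3). The Thio+IL-4c arrays (2044.3 to 2549.4) were dimmer than those of IL-4c. Brightness and treatment cannot be told apart in these comparisons. PBS, IL-4c and Thio 1 shared 1 slide, and Thio 2, Thio 3 and the Thio+IL-4c arrays shared the other. Thio 1 stood apart, correlating with the other Thio arrays at 0.848 to 0.865, whereas those correlated with each other at 0.984. Differences are given with the standard error (SE) of a limma fit over all 14 arrays and a Benjamini-Hochberg adjusted p over all genes, and a gene was called at an adjusted p under 0.05. The sorting markers were present in every group: Itgam (CD11b) had means of 5.95, 5.79, 4.14 and 4.23 and Adgre1 of 6.54, 6.27, 4.73 and 3.53 in PBS, IL-4c, Thio and Thio+IL-4c. In bulk RNA, fewer cells of a type and less RNA per cell cannot be told apart.

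IL-4c raised most of the ER machinery in both kinds of macrophage, and thioglycollate alone was accompanied by lower levels of much of it. With IL-4c on resident cells (IL-4c versus PBS), 26 of 42 members were higher and 4 lower (61.9% and 9.52%), where 16.9% of all genes were higher and 15.3% lower. With IL-4c on elicited cells (Thio+IL-4c versus Thio), 30 were higher and 3 lower (71.4% and 7.14%), against 16.2% and 23.1% of all genes. The median member rose by 0.69 and 0.75 on the log2 scale, where the median of all genes was -0.01 and 0.03. In 20 members both rises were called: Hspa5, Hsp90b1, Hyou1, Dnajb11, Sdf2l1, Manf, Creld2, P4hb, Pdia6, Atf4, Sec61a1, Sec61b, Sec61g, Ssr1, Ssr2, Ssr3, Spcs3, Trib3, Chac1 and Asns. No member was called lower in both.

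Thioglycollate alone (Thio versus PBS) went with 23 members lower and 6 higher (54.8% and 14.3%), against 24.2% and 20.2% of all genes, and the median member was at -0.46 against -0.09 for all genes. This split between directions depended on the slide and on the scaling. With slide as a block, which leaves Thio 1 to carry the comparison, 11 were lower and 9 higher, against 14.4% and 15.1% of all genes. The median member was then at -0.17, and at -0.15 within the PBS slide, which holds 1 Thio array. The 11 include Hsp90b1 (-0.42), which has no Thio 1 value, so slide and thioglycollate cannot be told apart for it. With the array median as centre 23 were lower and 3 higher, against 24.5% and 16% of all genes. The called falls that held under every planned setting were those of Dnajb9, Dnajc3, Canx, Ern1, Eif2ak3, Herpud1, Derl1 and Ssr4, and the rise that did so was that of Derl2. Of the 23 members lower with thioglycollate, 21 were higher with IL-4c on elicited cells. These comparisons share the Thio arrays, so the count is a description. Thio had the lowest mean of the groups for 28 members, and IL-4c the highest for 21.

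**Figure D2:**
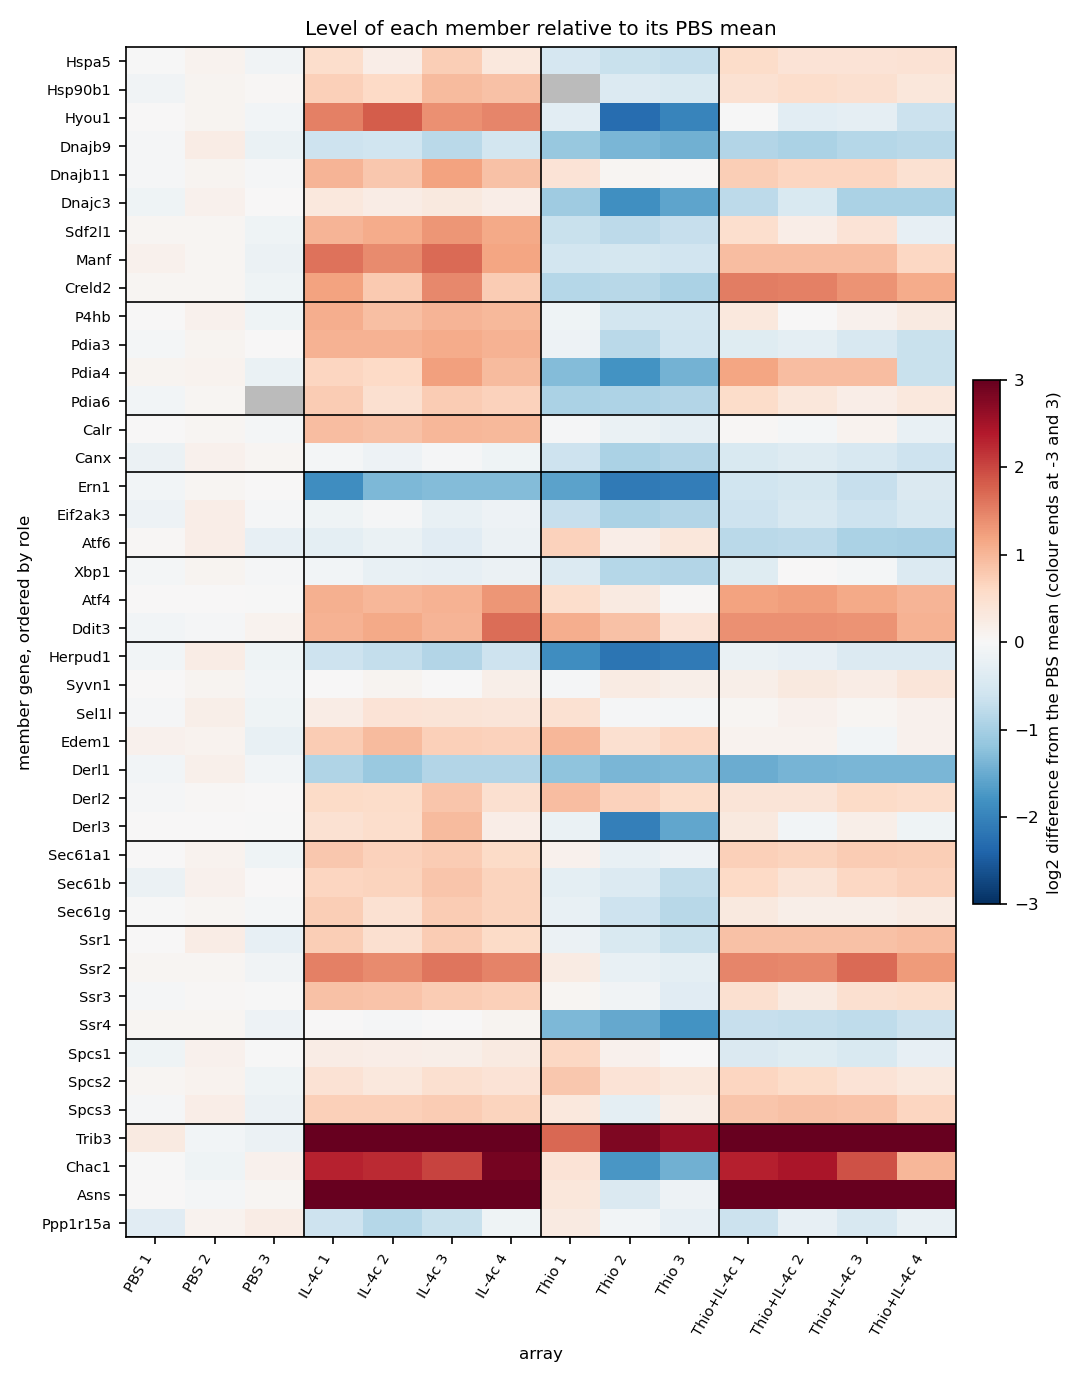
Level of each of the 42 members in every array, relative to its mean in PBS (log2 difference, red higher and blue lower, colours ending at -3 and 3, grey for a spot left out). Rows are ordered by role with a line between roles, and columns by group. Most chaperone, isomerase, Sec61 and TRAP rows are red in IL-4c, blue in Thio 2 and Thio 3, and red or pale in Thio+IL-4c.

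**Figure D3:**
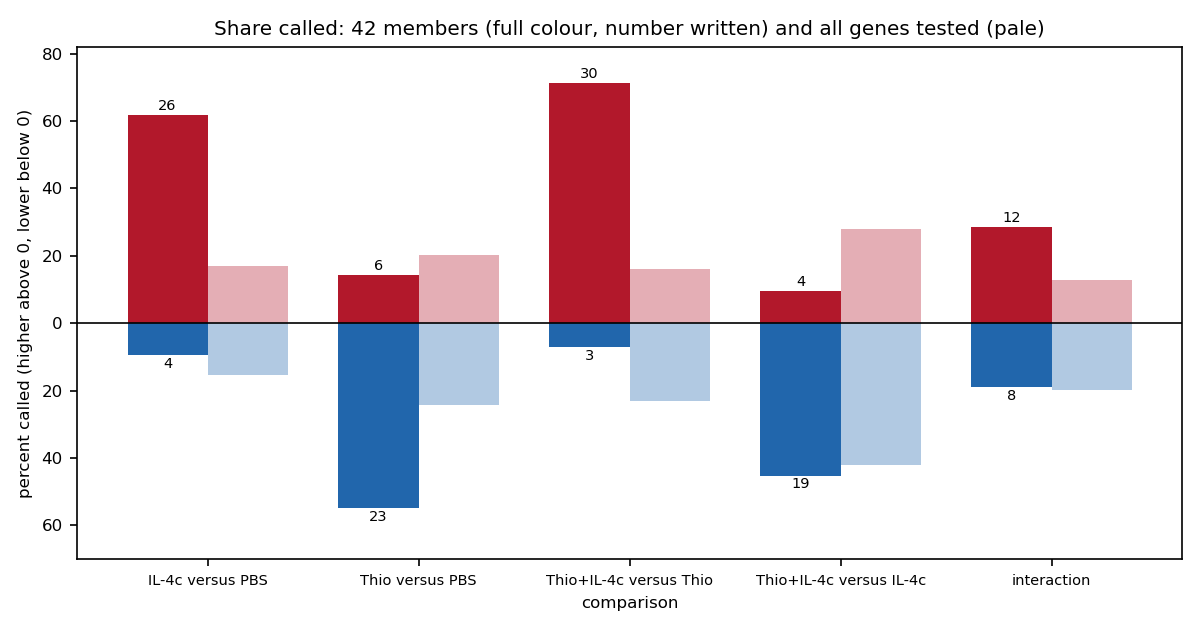
Percent of the 42 members (full colour, with their number) and of all genes tested (pale) called higher (above 0) or lower (below 0) in each comparison. Members exceed all genes in the higher direction in both IL-4c comparisons, with 26 and 30 members, and in the lower direction with thioglycollate, with 23 members.

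Counted without a test, as members whose arrays did not overlap between the groups, 29 were higher and 5 lower with IL-4c on resident cells, against 26.4% and 26.8% of all genes. On elicited cells 26 were higher and 3 lower, against 21.8% and 22.8%. With thioglycollate 7 were higher and 19 lower, against 19.1% and 23.3%. Genes with a spot left out, among them Hsp90b1 and Pdia6, are in no such count here or below.

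Most of the lumenal chaperones moved together. Of 9, 7 rose with IL-4c on resident cells and all 9 on elicited cells, and 8 were lower with thioglycollate. Of all genes 16.9%, 16.2% and 24.2% were called so, which is the background for the other roles too. With slide as a block the falls of Hspa5 (-0.51), Hyou1 (-0.32), Sdf2l1 (-0.66) and Manf (-0.56) with thioglycollate were not called. Hsp90b1 has no Thio 1 value, so the block does not correct its fall (-0.42) for slide. That fall lost its call without PBS 2, PBS 3, Thio 2 or Thio 3 (-0.45 to -0.38). Creld2, a disulfide isomerase-like protein induced by ER stress, was at 3.72, 3.71 and 3.51 in PBS and at 4.85, 4.44, 5.10 and 4.40 in IL-4c. In elicited cells it was at 2.80, 2.82 and 2.69 in Thio and at 5.19, 5.16, 4.99 and 4.76 in Thio+IL-4c. Both pairs of groups were fully separate, and Thio arrays were the lowest of all. The rise was 1.05 ± 0.17 (SE, limma adjusted p = 0.00051) in resident and 2.26 ± 0.17 (adjusted p = 1.1e-06) in elicited cells, and the difference between these rises was called (1.21 ± 0.24, adjusted p = 0.0026).

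Hspa5 (BiP), the main ER Hsp70 and the chaperone that holds the stress sensors inactive, read 5.67, 5.80 and 5.59 in PBS, 6.22, 5.90, 6.43 and 6.01 in IL-4c, 5.18, 5.03 and 4.97 in Thio, and 6.24, 6.11, 6.09 and 6.13 in Thio+IL-4c. IL-4c arrays lay above PBS and Thio+IL-4c arrays above Thio without overlap, and the IL-4c and Thio+IL-4c arrays overlapped. The rise was 0.46 ± 0.13 (limma adjusted p = 0.015) in resident and 1.08 ± 0.13 (adjusted p = 3e-05) in elicited cells. Without PBS 3 the resident rise was 0.41 and was not called (adjusted p = 0.066). The difference of the rises, 0.63 (adjusted p = 0.018), was 0.30 and not called after quantile normalization (adjusted p = 0.19). The fall with thioglycollate, -0.63 ± 0.14 (adjusted p = 0.0033), was -0.51 and not called on the PBS slide (adjusted p = 0.12).

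Hsp90b1 (Grp94), the ER Hsp90, rose by 0.79 in resident and 0.88 in elicited cells. Hyou1, a large Hsp70 that serves as nucleotide exchange factor for BiP, was at -0.24, -0.16 and -0.32 in PBS and at 1.28, 1.57, 1.13 and 1.22 in IL-4c, a rise of 1.54 ± 0.37 (limma adjusted p = 0.0062). Its Thio arrays were at -0.56, -2.52 and -2.21 and its Thio+IL-4c arrays at -0.26, -0.55, -0.52 and -0.89. Thio 1, on the slide of the PBS arrays, lay inside the range of Thio+IL-4c, and the other Thio arrays lay far below it. The elicited rise was 1.21 (adjusted p = 0.021) and lost its call without Thio 2 (0.83), Thio 3 (0.99) or Thio+IL-4c 1 (1.11). On the second slide alone it was 1.81 (adjusted p = 0.0014). The fall with thioglycollate, -1.52, was -0.32 and not called (adjusted p = 0.23) on the PBS slide.

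Manf, a secreted ER stress-inducible factor, rose by nearly the same amount in both settings, 1.49 ± 0.14 and 1.40 ± 0.14, with a difference of -0.09 ± 0.20 (limma adjusted p = 0.75). Sdf2l1, a BiP cofactor, rose by 1.15 and 0.93. Dnajb11 (ERdj3), a BiP co-chaperone, rose by 0.98 in resident and 0.45 in elicited cells. The latter was 0.39 and not called without Thio 2 or without Thio 3. The difference of these rises, -0.53 (adjusted p = 0.046), lost its call in 10 of the fits that left out 1 array (-0.56 to -0.40). Dnajc3 (p58IPK), a co-chaperone that also restrains PERK, rose in elicited cells by 0.72 (adjusted p = 0.0063) after a fall of -1.50 with thioglycollate. In resident cells Dnajc3 was at 0.25 and not called.

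Dnajb9 (ERdj4), a BiP co-chaperone that represses IRE1, went the other way in resident cells. Its levels were 2.40, 2.66 and 2.25 in PBS, 1.83, 1.85, 1.64 and 1.90 in IL-4c, 1.31, 1.06 and 0.99 in Thio, and 1.55, 1.50, 1.58 and 1.64 in Thio+IL-4c. PBS arrays were above all others, and Thio arrays were the lowest. IL-4c lowered it in resident cells (-0.63 ± 0.12, limma adjusted p = 0.0014) and raised it by 0.45 ± 0.12 (adjusted p = 0.011) in elicited cells, with a called difference of 1.08 ± 0.17 (adjusted p = 0.00047). Neither of the single changes was called on the authors' deposited table (-0.38 and 0.30) or with the mean of its probes (-0.50 and 0.50). The difference held under every planned setting.

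The disulfide isomerases form and rearrange the disulfide bonds of secretory proteins. With IL-4c, 3 of 4 rose in resident and 3 of 4 in elicited cells, and all 4 were lower with thioglycollate. Pdia6, an isomerase that also tempers IRE1 and PERK, was at 6.03 and 6.18 in PBS (the spot of PBS 3 carried an outlier mark and was left out), at 6.87, 6.60, 6.86 and 6.79 in IL-4c, at 5.17, 5.19 and 5.24 in Thio, and at 6.67, 6.44, 6.30 and 6.42 in Thio+IL-4c. No pair of compared groups overlapped in resident or elicited cells. It rose by 0.67 ± 0.13 (limma adjusted p = 0.0017) and 1.26 ± 0.11 (adjusted p = 6.6e-06). Its probes disagreed on the difference between these rises, 0.58 on the brighter (adjusted p = 0.022; 0.51 and not called without PBS 2) and -0.31 on the dimmer probe, while both rises were positive on both. With the mean of both probes, where PBS 3 rests on the dimmer probe alone, thioglycollate was at 0.13 in place of -0.90 and the elicited rise at 1.03, and neither was called (adjusted p = 0.85 and 0.11).

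P4hb, the founding protein disulfide isomerase, rose by 0.99 and 0.60. Pdia3 (ERp57), the isomerase that works with calnexin and calreticulin, rose in resident cells by 1.06 ± 0.14 (limma adjusted p = 0.00011). Its levels there were 3.51, 3.66 and 3.58 in PBS and 4.63, 4.63, 4.69 and 4.62 in IL-4c, with no overlap. In elicited cells Thio was at 3.43, 2.78 and 2.99 and Thio+IL-4c at 3.21, 3.28, 3.11 and 2.91, overlapping, with a difference of 0.06 ± 0.14 (adjusted p = 0.73). The resident and elicited effects differed by -1.0 ± 0.20 (adjusted p = 0.0026), a call that held under every planned setting. The falls of P4hb and Pdia3 with thioglycollate, -0.41 and -0.52, were -0.13 and -0.15 and not called on the PBS slide. Over all arrays that of P4hb lost its call without PBS 1 (-0.41), PBS 2 (-0.35), Thio 2 or Thio 3 (both -0.34), and that of Pdia3 without PBS 2 or Thio 3 (both -0.48) or Thio 2 (-0.37).

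Pdia4 (ERp72) showed the role's largest elicited rise, 2.09 ± 0.37 (limma adjusted p = 0.00074), from -0.06, -0.56 and -0.18 in Thio to 2.41, 2.15, 2.16 and 0.57 in Thio+IL-4c. Thio+IL-4c 4 was far below the other arrays of its group, yet the groups did not overlap. In resident cells it went from 1.32, 1.33 and 1.03 to 1.87, 1.83, 2.45 and 2.17, also without overlap, a difference of 0.85 that was not called (adjusted p = 0.11). With Thio+IL-4c 4 left out the same 0.85 was called (adjusted p = 0.0038), and the difference between the rises went from 1.24 (adjusted p = 0.093) to 1.65 (adjusted p = 0.00088).

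Calreticulin and calnexin are lectin chaperones that hold glycoproteins until they are folded, the first soluble and the second in the membrane. They behaved differently. Calr was at 4.75, 4.80 and 4.70 in PBS and 5.68, 5.64, 5.74 and 5.72 in IL-4c, and at 4.72, 4.56 and 4.48 in Thio and 4.79, 4.68, 4.86 and 4.53 in Thio+IL-4c. IL-4c arrays stood above all the others, which overlapped one another. Calr rose by 0.95 ± 0.10 (limma adjusted p = 1.7e-05) in resident cells and was at 0.13 ± 0.10 (adjusted p = 0.30) in elicited cells, and these effects differed (-0.81 ± 0.14, adjusted p = 0.00092) under every planned setting. Canx did not change in a called way in resident cells (-0.10 ± 0.11), was lower with thioglycollate (-0.81 ± 0.11, adjusted p = 0.00017), and rose by 0.33 in elicited cells (adjusted p = 0.031). That last call was lost without Thio 2, Thio 3 or any of Thio+IL-4c 1, 2 and 3 (0.26 to 0.32, adjusted p up to 0.092).

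**Figure D4:**
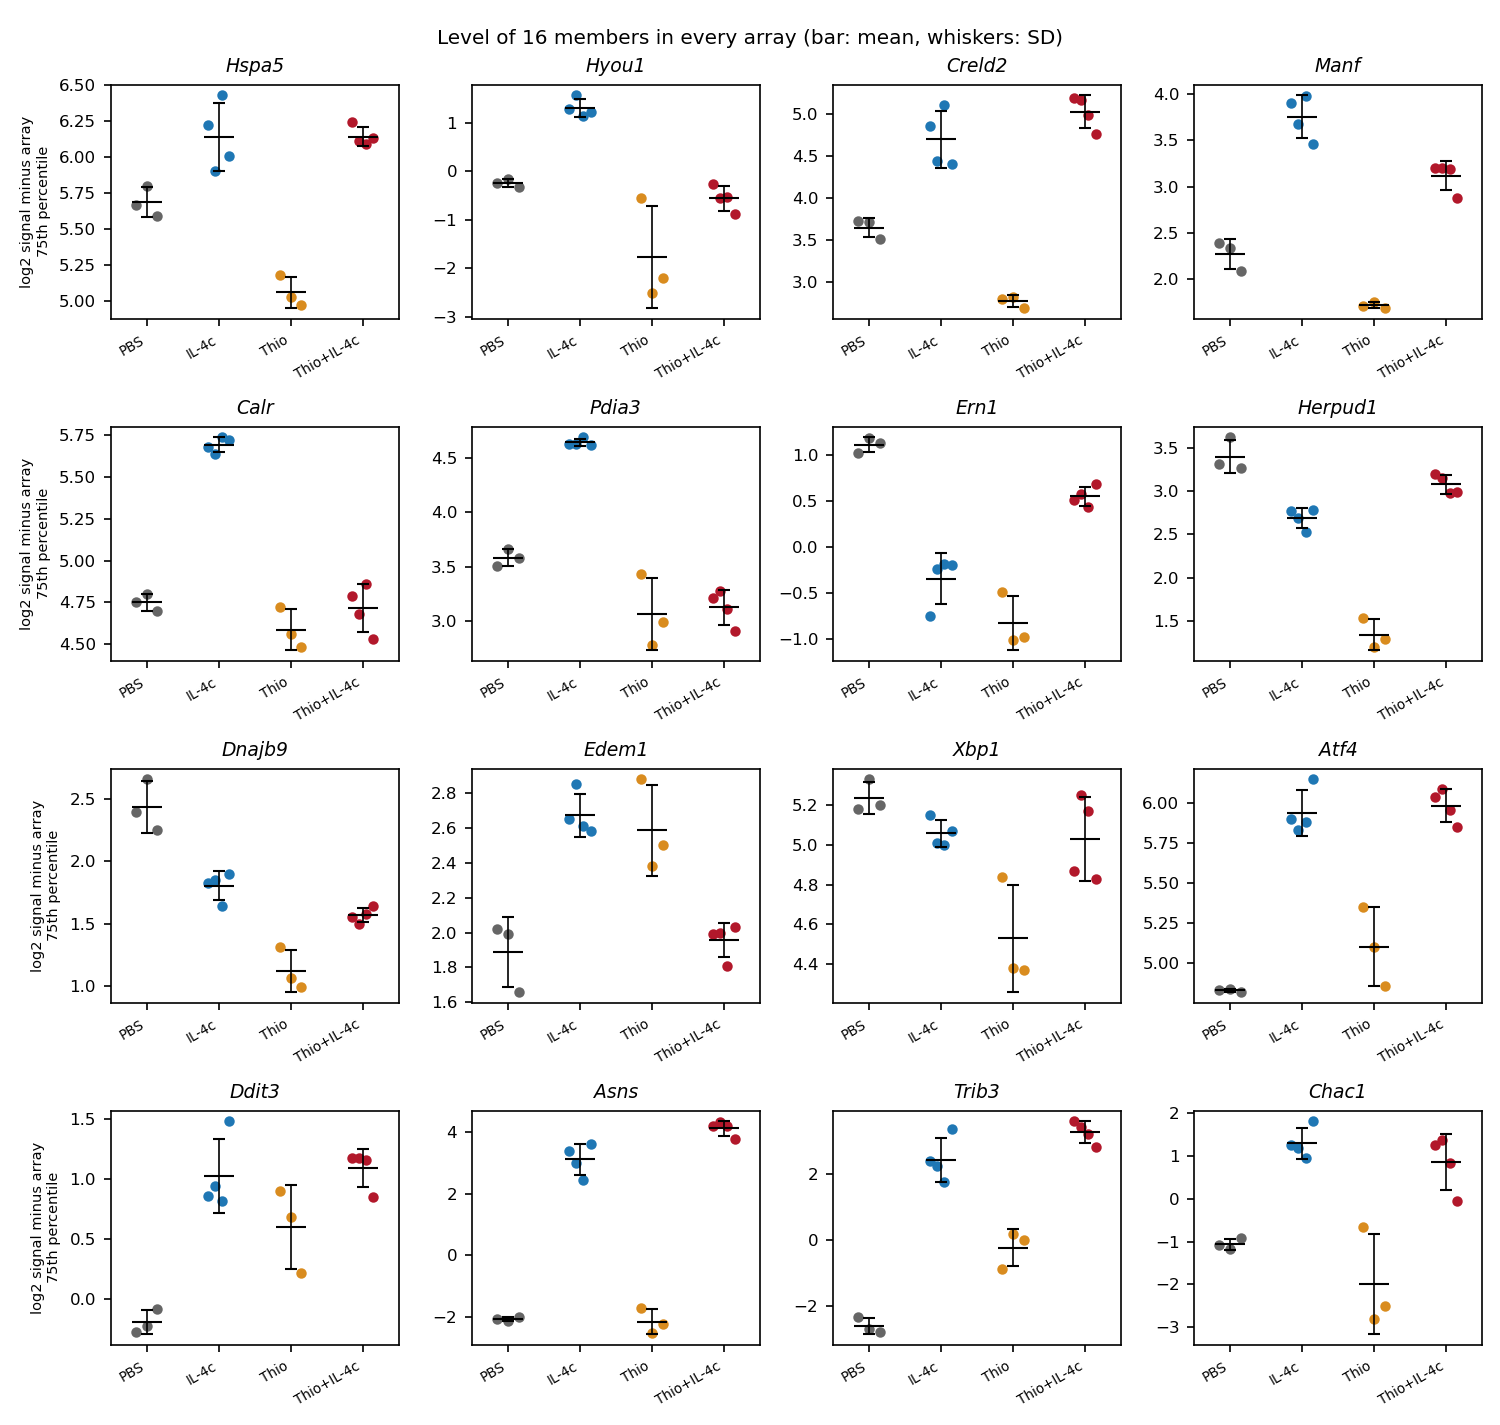
Level of 16 members in every array (points, log2 signal minus the 75th percentile of the array), with the group mean (bar) and SD (whiskers); vertical axes differ between panels and do not start at 0. Calr and Pdia3 are high in IL-4c alone, Ern1 and Herpud1 are lower in IL-4c than in PBS and higher in Thio+IL-4c than in Thio, and Asns is high in both groups given IL-4c.

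The sensors of the unfolded protein response differed from the chaperones, and 0 of 3 rose with IL-4c in resident cells. Ern1, which encodes IRE1, was at 1.02, 1.18 and 1.13 in PBS and at -0.75, -0.24, -0.18 and -0.19 in IL-4c. It was at -0.49, -1.01 and -0.97 in Thio and at 0.51, 0.58, 0.43 and 0.68 in Thio+IL-4c. PBS arrays were highest, Thio+IL-4c arrays came next without touching any other group, and the IL-4c and Thio arrays overlapped below. Each treatment given alone lowered it, IL-4c (-1.45 ± 0.16, limma adjusted p = 3e-05) as well as thioglycollate (-1.93 ± 0.18, adjusted p = 4.6e-06), and IL-4c raised it by 1.37 ± 0.16 (adjusted p = 3.7e-05) in elicited cells. The resulting difference between the IL-4c effects, 2.82 ± 0.23 (adjusted p = 5e-06), was the largest of any member, and every call of Ern1 held under every planned setting.

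Atf6 encodes the sensor that is cut into a transcription factor. Its levels were -0.70, -0.53 and -0.98 in PBS, -1.04, -0.95, -1.09 and -0.92 in IL-4c, -0.04, -0.53 and -0.39 in Thio, and -1.56, -1.52, -1.69 and -1.72 in Thio+IL-4c. Thio+IL-4c lay below every other array. IL-4c lowered Atf6 in elicited cells (-1.30 ± 0.14, limma adjusted p = 1.3e-05) and was at -0.26 ± 0.14 (adjusted p = 0.19) in resident cells, a called difference of -1.04 ± 0.19 (adjusted p = 0.0015). Its rise with thioglycollate, 0.42, lost its call when any of 6 arrays was left out (PBS 1 or 3, IL-4c 1 or 4, Thio 1 or 3), with values of 0.28 to 0.45.

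Eif2ak3 (PERK) was lower with thioglycollate (-0.85 ± 0.11, limma adjusted p = 0.00012) and was at -0.13 with IL-4c in resident cells. Its elicited rise of 0.30 (adjusted p = 0.042) and the difference of the IL-4c effects, 0.44 (adjusted p = 0.045), each lost their call in 11 of the fits that left out 1 array, with values of 0.25 to 0.33 and 0.34 to 0.46.

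Of the 3 transcription factors, Atf4 and Ddit3 rose with IL-4c in resident cells, and Xbp1 and Atf4 in elicited cells. Xbp1, whose probe cannot tell the spliced from the unspliced messenger here, was at 5.18, 5.33 and 5.20 in PBS, 5.15, 5.01, 5.00 and 5.07 in IL-4c, 4.84, 4.38 and 4.37 in Thio, and 4.87, 5.25, 5.17 and 4.83 in Thio+IL-4c. Thio 2 and Thio 3 were the lowest, and Thio 1 overlapped the Thio+IL-4c arrays. The fall with thioglycollate was -0.71 ± 0.15 (limma adjusted p = 0.0031; -0.40 on the PBS slide, with an adjusted p of 0.032 on that slide alone and of 0.097, not called, with slide as a block over all arrays). The elicited rise with IL-4c was 0.50 (adjusted p = 0.015) and was not called without Thio 2 (0.43) or Thio 3 (0.42). In resident cells Xbp1 was at -0.18 (adjusted p = 0.41). The difference of the IL-4c effects, 0.68 (adjusted p = 0.022), lost its call without PBS 2 (0.63) or Thio 3 (0.60).

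Atf4, the factor of the integrated stress response, was at 4.82 to 4.84 in PBS and 5.83 to 6.15 in IL-4c, and at 4.86 to 5.35 in Thio and 5.85 to 6.09 in Thio+IL-4c. It rose by 1.11 ± 0.12 (limma adjusted p = 2.7e-05) and 0.88 ± 0.12 (adjusted p = 0.00013), on both of its probes. Ddit3 (CHOP), a target of ATF4, rose by 1.22 ± 0.19 (adjusted p = 0.00034) in resident cells and by 0.79 (adjusted p = 0.0091) with thioglycollate. Its elicited difference with IL-4c, 0.49, was not called (adjusted p = 0.061). It was called without IL-4c 4 (0.49), Thio 1 (0.64) or Thio+IL-4c 4 (0.57).

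Genes of ER-associated degradation did not move as a group: with IL-4c, 2 of 7 rose and 2 fell in resident cells, and 2 rose and 1 fell in elicited cells. Herpud1, a membrane protein that organises the retrotranslocation complex, followed the pattern of Ern1. It was at 3.31, 3.62 and 3.26 in PBS and 2.77, 2.69, 2.53 and 2.78 in IL-4c. Thio was at 1.54, 1.20 and 1.29 and Thio+IL-4c at 3.19, 3.15, 2.98 and 2.99. The order was PBS, Thio+IL-4c, IL-4c and Thio, with no overlap between any of the groups. IL-4c lowered it in resident cells (-0.71 ± 0.12, limma adjusted p = 0.00083; -0.40 and not called on the authors' deposited table) and raised it by 1.74 ± 0.12 (adjusted p = 6.7e-07) in elicited cells. The difference was 2.44 ± 0.18 (adjusted p = 2.1e-06) and held under every planned setting.

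Edem1, a mannosidase-like lectin that extracts misfolded glycoproteins from the folding cycle, had the opposite pattern. It was at 2.02, 1.99 and 1.66 in PBS, 2.65, 2.85, 2.61 and 2.58 in IL-4c, 2.88, 2.38 and 2.50 in Thio, and 1.99, 2.00, 1.81 and 2.03 in Thio+IL-4c. The IL-4c and Thio arrays were high and overlapped, and the PBS and Thio+IL-4c arrays were low and overlapped. IL-4c raised it by 0.78 ± 0.14 (limma adjusted p = 0.00088) in resident cells and lowered it in elicited cells (-0.63 ± 0.14, adjusted p = 0.0034), a difference of -1.41 ± 0.20 (adjusted p = 0.00021) that held under every planned setting.

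The derlins, membrane proteins of the retrotranslocation channel, differed from one another. Derl1 fell with IL-4c in resident cells (-0.94 ± 0.10, limma adjusted p = 2e-05) and with thioglycollate (-1.30 ± 0.11, adjusted p = 2.2e-06), and both of its probes went down. In elicited cells its probes gave -0.10 and 0.27. Derl2 rose by 0.61 with IL-4c in resident cells and by 0.72 with thioglycollate on its brightest probe, with 2 dimmer probes at -0.03 and 0.51 for IL-4c and at 0.14 and 0.44 for thioglycollate. In elicited cells its probes disagreed, at -0.26, 1.17 and 0.13, as they did on the difference of the IL-4c effects, at -0.87, 1.20 and -0.39. Derl3 was uneven within Thio. Its Thio arrays were at -1.56, -3.43 and -2.93, against -1.38 to -1.36 in PBS and -1.49 to -1.08 in Thio+IL-4c. Its fall with thioglycollate (-1.27, adjusted p = 0.018) was -0.19 on the PBS slide and lost its call without Thio 2 (-0.88) or Thio 3 (-1.12). Its elicited rise was 1.33 (adjusted p = 0.0093).

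Syvn1 (HRD1), the ubiquitin ligase of the main degradation complex, and its partner Sel1l were called in none of the comparisons, as was Ppp1r15a. Syvn1 stayed between 3.38 and 3.83 on all 14 arrays. For IL-4c on resident cells Syvn1 was at 0.06 ± 0.10 and Sel1l at 0.34 ± 0.13 (limma adjusted p = 0.064), and Sel1l was called there without PBS 2 (0.43) or Thio 1 (0.34).

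Transcripts of all 3 Sec61 subunits were higher under IL-4c in both kinds of cell, by 0.66 to 0.71 in resident and by 0.77 to 1.06 in elicited cells. Sec61g, a small subunit of the channel, was at 4.77, 4.83 and 4.73 in PBS, 5.52, 5.24, 5.55 and 5.44 in IL-4c, 4.55, 4.17 and 3.95 in Thio, and 5.07, 4.95, 4.95 and 5.02 in Thio+IL-4c. The groups did not overlap. The rises of Sec61g were 0.66 ± 0.13 (limma adjusted p = 0.0022) and 0.77 ± 0.13 (adjusted p = 0.00064). Sec61a1, the pore, rose by 0.71 ± 0.10 and 0.80 ± 0.10 and was at -0.08 with thioglycollate. Sec61b rose by 0.71 and 1.06. The falls of Sec61b and Sec61g with thioglycollate, -0.48 and -0.56, were -0.29 and -0.23 and not called on the PBS slide, and a dimmer Sec61b probe was at 0.23. The call for Sec61b was also lost without PBS 2 (-0.41) or Thio 3 (-0.35).

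The TRAP complex sits beside the channel and helps some signal sequences to open it. Of its 4 subunits, 3 rose in resident and 4 in elicited cells. Ssr2 rose equally, by 1.50 ± 0.14 (limma adjusted p = 6.6e-06) and 1.56 ± 0.14 (adjusted p = 3.8e-06), with a difference of 0.06 ± 0.20. It went from 1.78 to 1.93 in PBS to 3.29 to 3.49 in IL-4c, and from 1.58 to 2.12 in Thio to 3.15 to 3.57 in Thio+IL-4c. Ssr3 rose by 0.81 and 0.57.

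Ssr4, the fourth TRAP subunit, was at 5.23, 5.24 and 5.02 in PBS, 5.18, 5.13, 5.17 and 5.26 in IL-4c, 3.83, 3.64 and 3.38 in Thio, and 4.48, 4.46, 4.41 and 4.53 in Thio+IL-4c. PBS and IL-4c overlapped, Thio+IL-4c lay below them and Thio lower still. It was at 0.02 ± 0.11 in resident cells (limma adjusted p = 0.94) and rose by 0.85 ± 0.11 (adjusted p = 7.4e-05) in elicited cells, after a fall of -1.55 ± 0.12 (adjusted p = 1.1e-06) with thioglycollate. The difference of the IL-4c effects, 0.83 (adjusted p = 0.0017), was 0.33 and not called on the authors' deposited table. Ssr1 rose by 0.64 and 1.32 on its brightest probe, but 2 dimmer probes were at -1.18 and -0.02 in resident and at -0.17 and 0.32 in elicited cells, so its direction in resident cells differed between probes.

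The signal peptidase subunits were less uniform. Spcs3 rose by 0.71 ± 0.14 (limma adjusted p = 0.0021) and 0.74 ± 0.14 (adjusted p = 0.0015), with both probes in the same direction. Spcs1 was at 4.55, 4.80 and 4.66 in PBS, 4.89, 4.86, 4.85 and 4.94 in IL-4c, 5.30, 4.80 and 4.67 in Thio, and 4.24, 4.31, 4.22 and 4.42 in Thio+IL-4c, the last group being below all others. IL-4c lowered it in elicited cells (-0.63 ± 0.14, adjusted p = 0.0033) and was at 0.21 (adjusted p = 0.30) in resident cells, and the difference was called (-0.84 ± 0.20, adjusted p = 0.006). Spcs2 rose by 0.41 with IL-4c in resident cells and by 0.51 with thioglycollate on the brighter probe, against -0.19 and -0.81 on the dimmer one. The first call was lost without PBS 1 or 3 or without IL-4c 1, 3 or 4 (0.34 to 0.43), and the second without PBS 3 (0.44).

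The largest changes were in targets of the integrated stress response. Asns, asparagine synthetase, was at -2.05, -2.13 and -2.0 in PBS and at 3.37, 3.0, 2.44 and 3.62 in IL-4c. It was at -1.71, -2.50 and -2.21 in Thio and at 4.19, 4.31, 4.18 and 3.77 in Thio+IL-4c. The arrays with and without IL-4c were far apart, and every Thio+IL-4c array was above every IL-4c array. The rises were 5.17 ± 0.26 (35.9-fold, limma adjusted p = 6.8e-08) and 6.25 ± 0.26 (76.2-fold, adjusted p = 1.3e-08). Their difference, 1.09 (adjusted p = 0.043), lost its call in 10 of the fits that left out 1 array (0.87 to 1.12).

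Trib3, a pseudokinase induced by ATF4 and CHOP, was at -2.34, -2.70 and -2.78 in PBS, 2.39, 2.22, 1.74 and 3.34 in IL-4c, -0.88, 0.18 and 0.01 in Thio, and 3.59, 3.41, 3.21 and 2.82 in Thio+IL-4c. PBS, Thio and the groups given IL-4c formed 3 separate levels. It rose by 5.03 ± 0.36 (32.6-fold, limma adjusted p = 8.1e-07) and 3.48 ± 0.36 (11.2-fold, adjusted p = 1.1e-05), and by 2.38 ± 0.38 (adjusted p = 0.00045) with thioglycollate alone. On the PBS slide alone the last value was 1.73 and not called (adjusted p = 0.06), and it was called with slide as a block (adjusted p = 0.02). The difference of the IL-4c effects, -1.55 (adjusted p = 0.036), lost its call in 8 of the fits that left out 1 array (-1.60 to -1.34).

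Chac1, which degrades glutathione, rose by 2.36 ± 0.48 (limma adjusted p = 0.0023) and 2.85 ± 0.48 (adjusted p = 0.00053). It was at -1.18 to -0.92 in PBS and 0.96 to 1.82 in IL-4c. Thio 1 was at -0.65, the other Thio arrays at -2.81 and -2.51, and Thio+IL-4c at 1.27, 1.39, 0.84 and -0.06. Its difference with thioglycollate was -0.93 and not called. It was -1.60 (adjusted p = 0.0035) without Thio 1, and 0.40, the other direction and not called, on the PBS slide, which holds Thio 1 alone (adjusted p = 0.39). Ppp1r15a (GADD34), which resets translation after stress, was at -0.56 ± 0.20 in resident cells (adjusted p = 0.056) and at -0.38 in elicited cells, and did not rise with the other targets. The first value was called without PBS 1 (-0.73), IL-4c 4 (-0.71) or Thio 1 (-0.56).

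The IL-4c effect differed between resident and elicited cells for 20 of 42 members, 12 with the larger value in elicited and 8 with the larger value in resident cells, shares of 28.6% and 19%, against 12.7% and 19.9% of all genes, so that the second share was near the background. The balance of directions moved with the scaling: it was 5 and 8 with the array median as centre and 4 and 16 on the authors' deposited table. Under every planned setting 9 differences were called, those of Dnajb9, Creld2, Ern1 and Herpud1 above 0 and those of Pdia3, Calr, Atf6, Edem1 and Spcs1 below 0. In 4 members IL-4c had called effects of opposite sign, down in resident and up in elicited cells for Dnajb9, Ern1 and Herpud1 and the reverse for Edem1.

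**Figure D5:**
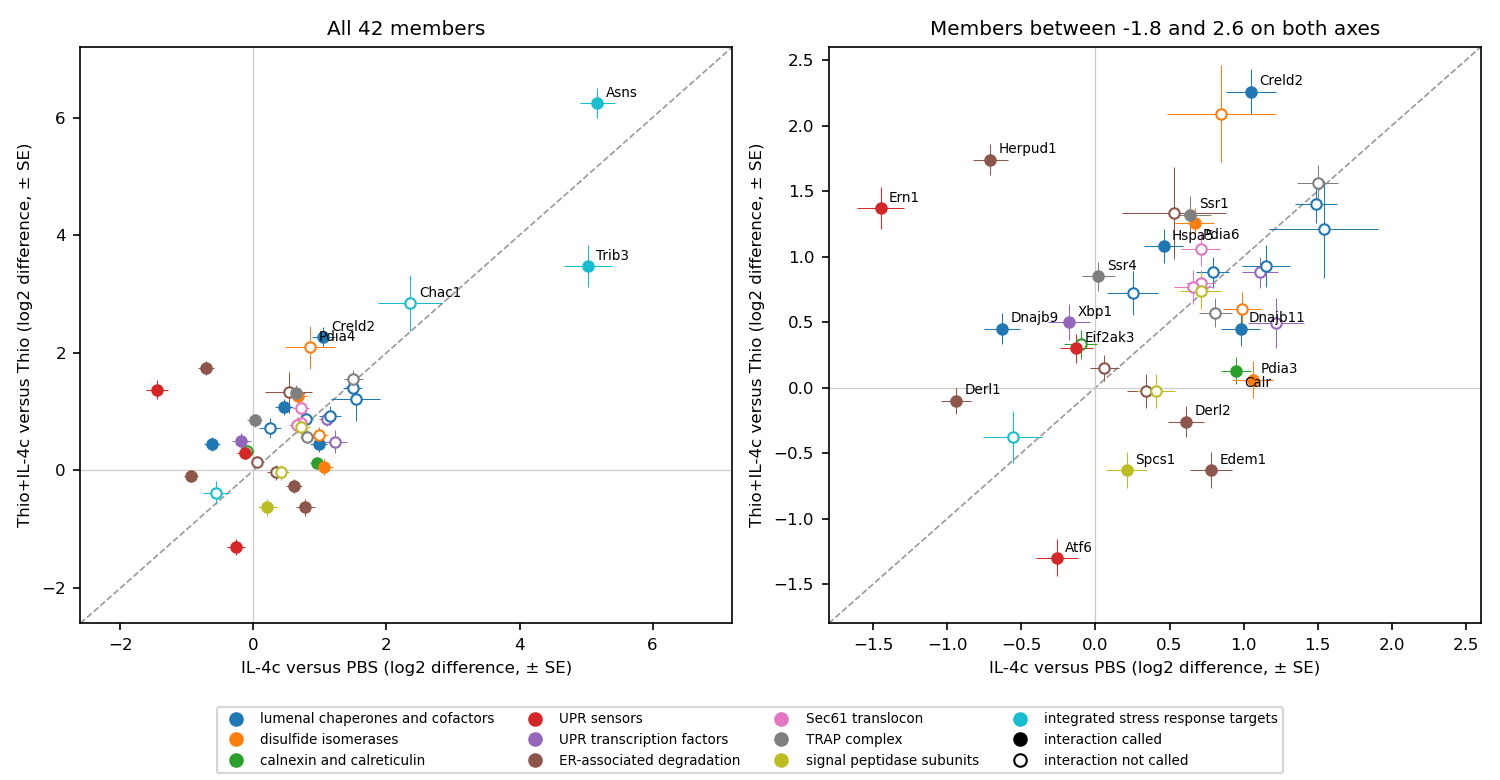
Effect of IL-4c in resident cells (horizontal) and in elicited cells (vertical), as log2 differences with SE, for all 42 members (left) and for those between -1.8 and 2.6 on both axes (right); colours are roles, filled points have a called difference between the effects, and the dashed line marks equal effects. Asns and Trib3 lie far to the upper right, Ern1 and Herpud1 in the upper left, and Edem1 in the lower right.

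Between the groups given IL-4c (Thio+IL-4c versus IL-4c), 19 members were lower and 4 higher in elicited cells, against 42.2% and 27.9% of all genes, so that the members' shares of 45.2% and 9.52% were near the background for lower and under it for higher. These groups lie on different slides. A slide block takes the slide effect from Thio 1 against Thio 2 and Thio 3 alone, and Thio 1 stood apart from both. Hsp90b1 (-0.33) has no Thio 1 value, so the block does not correct it. With slide as a block 3 were lower and 4 higher, against 14.5% and 12.2% of all genes. After quantile normalization 14 were lower and 11 higher, against 42.9% and 28.1% of all genes. None of these counts was over the background. Under every planned setting Pdia3 (-1.52) and Calr (-0.98) were lower and Ern1 (0.89) and Asns (1.01) higher in Thio+IL-4c. Arrays that did not overlap were found for 5 members on the higher and 18 on the lower side, against 29.9% and 42.7% of all genes.

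The wider secretory pathway was read from 6 further lists, of which 135 of 136 genes were measured. With IL-4c 58 were higher and 12 lower in resident cells and 59 and 28 in elicited cells, and with thioglycollate 26 were higher and 48 lower. As shares these were 43% and 8.89% in resident cells (16.9% and 15.3% of all genes), 43.7% and 20.7% in elicited cells (16.2% and 23.1%), and 19.3% and 35.6% with thioglycollate (20.2% and 24.2%), so that the 28 lower in elicited cells and the 26 higher with thioglycollate were near the background. Of 22 genes of N-glycosylation and glycoprotein quality control, 12 rose and 1 fell in resident and 10 rose and 2 fell in elicited cells, such as Pgm3 of sugar nucleotide synthesis (0.96 and 1.36). With thioglycollate 10 fell and 1 rose, among them Ddost (-1.20) and Rpn2 (-1.23), subunits of the oligosaccharyltransferase. Of 27 genes of COPII transport and cargo or KDEL retrieval, 12 rose and 1 fell, and 11 rose and 4 fell. Kdelr3, a receptor that returns escaped ER proteins, had the largest rises of that list in both, 2.46 ± 0.61 (limma adjusted p = 0.0077) and 2.68 ± 0.61 (adjusted p = 0.004).

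Of 24 measured genes among 25 other folding enzymes, 11 rose and 1 fell in resident and 9 rose and 6 fell in elicited cells. The rises were 45.8% and 37.5% of the list, and the 6 falls, 25%, were near the 23.1% of all genes. Ero1a, the oxidase that recharges disulfide isomerases, rose by 2.51 in resident cells, and Fkbp11, a prolyl isomerase, by 1.72 and 3.01. The prolyl isomerases Fkbp14 and Fkbp9 fell in elicited cells (-2.0 and -1.81). Of 22 other degradation genes, 3 rose and 6 fell in resident and 3 rose and 11 fell in elicited cells. The rises were 13.6% of the list in each and under the share of all genes. The falls were 27.3% and 50%, over the 15.3% and 23.1% of all genes. Os9, a lectin of that pathway, was at -1.12 in elicited cells. With thioglycollate 10 rose (45.5%) and 5 fell (22.7%), against 20.2% and 24.2% of all genes. Of 14 genes of signal recognition and translocation, 5 rose and 2 fell in resident cells, and 7 rose and 3 fell in elicited cells. The rises were 35.7% and 50% of the list, against 16.9% and 16.2% of all genes. The falls, 14.3% and 21.4%, were near the background of 15.3% and 23.1%.

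The list of 26 other ATF4 and amino acid response genes had 15 higher and 1 lower in resident and 19 higher and 2 lower in elicited cells. The medians were 0.89 and 1.06. The higher shares were 57.7% and 73.1%, against 16.9% and 16.2% of all genes. Mthfd2, of mitochondrial one-carbon metabolism, rose by 3.86 ± 0.24 (limma adjusted p = 3.2e-07) and 4.45 ± 0.24 (adjusted p = 8.9e-08). Psat1 of serine synthesis rose by 3.25 in resident cells. Phgdh, the first enzyme of that route, rose by 4.23 ± 0.31 (adjusted p = 7.4e-07) in elicited cells, and its effects differed by 3.07 ± 0.43 (adjusted p = 0.00023). Cebpg fell in both (-1.49 and -0.48). Atf3 was higher with thioglycollate (3.29 ± 0.20, adjusted p = 1.6e-07) and fell with IL-4c in elicited cells (-1.56).

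Other gene groups moved with the same treatments. All 10 proliferation markers rose with IL-4c in both kinds of cell, their summed level being 3.24 to 4.03 in PBS, 7.03 to 7.34 in IL-4c, 2.29 to 2.75 in Thio and 4.98 to 5.49 in Thio+IL-4c, the log2 of their summed signal on the same scale. Plasma cell markers, the lineage best known for a large ER, summed to 2.18 to 2.38 in PBS, 1.74 to 1.99 in IL-4c, 2.90 to 3.14 in Thio and 3.0 to 3.25 in Thio+IL-4c. Of 7, 0 were called higher and 3 lower with IL-4c on resident cells, and 1 higher and 2 lower on elicited cells. The 7 did not move together. Means in PBS, IL-4c, Thio and Thio+IL-4c were -3.11, -3.09, -3.32 and -5.52 for Jchain, -0.44, -2.47, -1.96 and -2.16 for Mzb1, and -3.15, -2.93, 2.34 and 1.17 for Sdc1, the last being highest in Thio. With thioglycollate Sdc1 (5.49), Prdm1 (1.69) and Tnfrsf17 (1.56) were higher, and Irf4 (-2.62) and Mzb1 (-1.52) were lower. With IL-4c in elicited cells Irf4 was higher (2.91), its mean going from -1.19 in Thio to 1.72, against 1.43 in PBS. B cell markers summed to 3.50 to 4.25, 1.83 to 2.02, 2.72 to 2.89 and 1.80 to 1.90 in the same order, with 0 higher and 5 lower of 10 with IL-4c on resident cells. Of 7 measured macrophage markers 0 were higher and 5 lower there, against 15.3% of all genes lower, and their sums were 9.48 to 9.70, 7.90 to 7.95, 7.80 to 8.25 and 7.09 to 7.33. A sum follows its brightest genes: mean Lyz2 was 8.47 in PBS and 1.19 in IL-4c, and mean Csf1r 7.73 and 6.60. The sorting markers changed less with IL-4c on resident cells, Adgre1 by -0.27 (called) and Itgam by -0.17 (not called). The part of these groups in the members' values was not tested.

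Neutrophil markers summed to 1.93 to 2.23 in PBS, 1.70 to 2.71 in IL-4c, 3.11 to 4.10 in Thio and 3.80 to 4.40 in Thio+IL-4c, and mast cell and basophil markers to 2.64 to 2.93, 1.70 to 1.85, 0.90 to 2.19 and 0.44 to 0.85. Sums of T and NK cell markers lay between 3.24 and 4.08 over all groups and those of eosinophil markers between 0.67 and 1.89. Dendritic cell markers summed to 2.01 to 2.34, 2.79 to 3.0, 1.26 to 1.51 and 1.97 to 2.58, and mesothelial and stromal markers to 0.92 to 1.1, 0.96 to 1.33, 1.66 to 2.33 and 1.26 to 1.44.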

How the data were processed

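Total RNA of 14 sorted macrophage samples was labelled with Cy3 and hybridised to 1-colour Agilent arrays of 62976 spots, per the labels' protocols. The deposited scanner files give processed signal intensity per spot from Feature Extraction 11.0.1.1, per the file headers (11.5 and limma per the submitters' processing notes). The authors' deposited table of log2 values has its median at 9.2341 on these arrays and served as an alternative. Per array it correlates at 0.9889 to 0.9951 with the log2 median spot signal, a different measure from the values used here. The sources used here do not give its exact normalization. The values used here are log2 processed signals less the array's own 75th percentile, without 3671 control spots and without spots marked as outliers. Of 55681 probes, 27235 carried 1 symbol through their RefSeq accession (gene table of GRCm38.p6) and 28446 were unnamed. Probes had to be well above background on 3 or more arrays, and the brightest probe stood for its gene. The 55 probes of the 42 members include several for 11 of them. One limma 3.58.1 fit (R 4.3.3) with 4 group means gave 5 two-sided comparisons, the last being the difference between the IL-4c effects, with Benjamini-Hochberg adjustment over 20343 genes. The fit was tested on simulated data. For Hsp90b1 in Thio 1 and Pdia6 in PBS 3 the spot was left out, so n was 2 there.

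The members and lists were chosen with earlier results of these data known. The rule for description in full took, per role, the member called in most comparisons and any member whose probes disagreed in sign. Hspa5, Hyou1, Dnajb9, Pdia3, Pdia4, Atf6, Edem1 and Asns were added after their values were seen. Pathway genes were named from the 2 largest called rises and falls per list and comparison. Replicate numbers were not used to pair the samples, as the labels give no pairing. Of 19 pairs of arrays with the same number, 4 had deviations correlated over 0.1 (range -0.45 to 0.37). Pairs with different numbers were not compared, so these values cannot show whether samples were paired. Alternatives covered normalization, background, centring, probe choice, filters, the samples fitted, slide, replicate number, array weights and each array left out. Precision is limited by the number of arrays.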

Additional observations from a re-analysis of the deposited data

Results flagged for a closer look

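In 9 of 84 groups of 4 arrays, 1 array lay far from the other 3 relative to the range (chance gives about 1 in 20). In Thio+IL-4c 4, Pdia4 was at 0.57 (nearest array 2.15), Manf at 2.88 (3.19), Ddit3 at 0.85 (1.16) and Spcs3 at 2.79 (2.98), each the lowest of its group. Ern1 was at -0.75 in IL-4c 1 (-0.24) and Derl1 at 3.07 in IL-4c 2 (3.28) and 2.68 in Thio+IL-4c 1 (2.79). Sec61b was at 5.73 in IL-4c 3 (5.57) and Ssr3 at 4.44 in Thio+IL-4c 2 (4.67).

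The difference between the IL-4c effects, elicited less resident, was called by limma for 20 members. It was above 0 for Hspa5 (0.63), Dnajb9 (1.08), Creld2 (1.21), Pdia6 (0.58), Ern1 (2.82), Eif2ak3 (0.44), Xbp1 (0.68), Herpud1 (2.44), Derl1 (0.84), Ssr1 (0.68), Ssr4 (0.83) and Asns (1.09). It was below 0 for Dnajb11 (-0.53), Pdia3 (-1.0), Calr (-0.81), Atf6 (-1.04), Edem1 (-1.41), Derl2 (-0.87), Spcs1 (-0.84) and Trib3 (-1.55). Of these, the values of Dnajb11, Eif2ak3, Trib3 and Asns lost their call in 10, 11, 8 and 10 of the fits that left out 1 array, Xbp1's in 2, and those of Pdia6 and Ssr1 in 1 each. Dimmer probes gave the opposite sign for Derl2 (1.20) and Pdia6 (-0.31).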

How the results depend on the processing

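The members' own calls held under all 29 planned settings for 24 of 30 (IL-4c versus PBS), 9 of 29 (Thio versus PBS), 24 of 33 (Thio+IL-4c versus Thio), 4 of 23 (Thio+IL-4c versus IL-4c) and 9 of 20 (difference of the IL-4c effects). With IL-4c on resident cells 26 were higher and 4 lower, and 2 were lower on the authors' deposited table. With thioglycollate the 6 higher became 3 with the array median as centre and 2 with only the groups compared, and the 23 lower became 13 with only the groups compared, 11 with slide as a block, 13 with slide as a random block and 12 within the PBS slide. Higher members were 20.7% of those called there, against 45.0%, 40.9% and 36.8% under those slide settings. In Thio+IL-4c versus IL-4c the 4 higher became 11 after quantile normalization with or without normexp, 2 with the median and 2 on the authors' table, and the 19 lower became 3 and 4 with slide as a fixed or random block. The higher share, 17.4%, became 44.0% (quantile, both), 8.0% (median), 6.7% (authors' table), 57.1% and 42.9% (slide). For the difference of the effects the 12 higher became 5 (median) and 4 (authors' table), and the 8 lower became 16 (authors' table), so the higher ones went from 12 of 20 to 5 of 13 (38.5%) and 4 of 20. Leaving out each array gave 24 to 28 higher and 4 to 5 lower, 4 to 6 and 17 to 24, 25 to 31 and 3 to 4, 3 to 5 and 18 to 22, and 7 to 15 and 6 to 9 in the order of the comparisons above, with the 7 reached without PBS 2. Without Thio 1 and PBS 3 together, chosen after seeing the data, the counts were 27 and 5, 5 and 25, 31 and 3, 6 and 22, and 15 and 7. In Thio+IL-4c versus IL-4c, Hspa5 was at 0.00, without a direction, and at -0.35 on the authors' table. Among values called in either fit, directions turned in that comparison for Sec61a1 (-0.32) on the authors' table. They turned there for Dnajb11 (0.01), Derl3 (1.16), Sec61g (0.05) and Trib3 (-0.14) with slide as a block. With the mean of the probes directions turned for Derl2 (0.41) and Ssr3 (0.01), and they turned for Ssr2 (0.27 after quantile normalization, 0.27 with normexp too). In Thio versus PBS they turned for Hsp90b1 (0.01 and 0.02 under the same pair) and, with the mean of the probes, for Pdia6 (0.13) and Spcs2 (-0.15), as they did for Ssr1 in IL-4c versus PBS (-0.19) and for the difference of effects of Pdia6 (-0.67). In 152 further values of 5753 the sign turned with no call in either fit, 19 of them with slide as a block, such as Chac1 in Thio versus PBS (0.40) and in Thio+IL-4c versus IL-4c (1.56). The cause was not tested. Among scalings, the median of all genes moved by over 0.1 with normexp (-0.160 in IL-4c versus PBS, 0.161 in the difference of effects), with the array median (-0.139, -0.102, -0.326 and -0.186 in the comparisons after the first) and on the authors' table (-0.224 and -0.146 in the last pair). It also moved in Thio versus PBS with slide as a fixed block (0.132), as a random block (0.105) and within the PBS slide (0.131), in Thio+IL-4c versus IL-4c with these blocks (0.234 and 0.192), and with the stricter filter on dim probes in both Thio+IL-4c comparisons (-0.104 against Thio, -0.109 against IL-4c). With replicate number as a replicate block, which pairs nothing by the labels, 26 were higher and 5 lower, 5 and 21, 28 and 3, 3 and 19, and 8 and 6, sharing 30, 26, 31, 22 and 14 calls with the fit without it. A block for scan was not run, as scans and slides coincide, and normexp used the median spot signal in place of the mean.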

Other observations

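Other genes of the wider lists with large called values in the same limma fit were not described above. Pdia5, a disulfide isomerase outside the members, was lower with thioglycollate (-2.45 ± 0.26 SE) and higher with IL-4c in elicited cells (2.06 ± 0.24), the directions of Pdia4 and Pdia6. Arfgap3, which acts in return transport from the Golgi to the ER, was higher with IL-4c in resident cells (1.51 ± 0.13) and with thioglycollate (1.01 ± 0.14). Lman1, a receptor for glycoproteins leaving the ER, was lower with thioglycollate (-1.36 ± 0.14), and Lman2, a related lectin, was higher with IL-4c in elicited cells (1.09 ± 0.12). Tusc3, a subunit of the oligosaccharyltransferase, was higher with thioglycollate (1.40 ± 0.11), where Rpn2 and Ddost of the same complex were lower, and fell with IL-4c in elicited cells (-0.63 ± 0.11). Nupr1, a stress-induced nuclear protein of the ATF4 list, was lower with thioglycollate (-3.65 ± 0.21).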
